A study of Mus musculus with 12 samples.

Results

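A set of 110 named genes lay below the control in every Resf1 knockout library, out of 982 genes in the deposited table. A gene was taken when it had a symbol and the highest of its 9 values in the knockout libraries was under the lowest of its 3 values in sgControl. Genes on chromosome 15, genes named Gm plus digits or Rik, gene families given by symbol prefix (zinc finger, transporter, channel, ribosomal protein and translation factor genes) and a list of nucleolar and other genes were left out, which left 736 genes to choose from. Without these exclusions 158 genes, 16.1% of the table, had every knockout library below every sgControl library. Of those, 22 were dropped by prefix, 13 as Gm genes, 5 as Rik genes, 5 for chromosome 15 and 3 by name. The members were therefore chosen by their measured difference from sgControl, and that difference is given here as a description, without a test. By the annotation 109 members were protein coding and 1, Impdh2-ps, was a processed pseudogene.

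The cells were 6DT1, a mouse mammary cancer line from an MMTV-Myc tumor, in which a mouse mammary tumor virus promoter drives Myc in the mammary epithelium. The 3 sgControl libraries are labelled wild type with the treatment sgScranble control, and the libraries of sg1, sg2 and sg3, again 3 each, are labelled Resf1 KO with the treatment sgResf1 CRISPR KO. All 4 groups were grown in medium with puromycin, seeded in triplicate, and sequenced from stranded total RNA libraries. Per the study's methods the 3 guides cut the largest coding exon of Resf1 and edited cells were plated as single cell clones. Each guide line is thus taken as 1 clone, its libraries are dishes of that clone, and the effects of guide and clone cannot be told apart. Whether the sgControl line was also a clone is not given in the sources used here. The p-values below measure the spread between dishes only. The treatment text in the labels describes hairpin knockdown of the human gene, which is not how these lines were made. The targeted gene, Resf1, was not analysed here and gave no check of the labels.

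Resf1 encodes retroelement silencing factor 1, a nuclear protein known to work with the histone methyltransferase SETDB1 in silencing endogenous retroviruses. Secreted and membrane proteins enter the endoplasmic reticulum (ER) unfolded, receive sugars from oligosaccharyltransferase, are folded by chaperones and by disulfide isomerases, and leave for the Golgi, while failed products are handed to ubiquitin ligases for degradation. Genes of this folding machinery are known to be raised together when unfolded protein builds up. Mitochondria build their respiratory chain from subunits made in the cytosol and in the organelle, and need assembly factors, import, and maintenance of their own DNA. MYC, the oncogene behind this tumor line, is known to raise genes for ribosomes, translation and mitochondria.

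The sums over the table were 2069298 to 2713951 per library, with size factors of 0.859 to 1.15 as read from the spacing of low values. They cover only part of a library, so the depth is unknown. All 982 genes had an unadjusted limma p under 0.05 for the mean of the guide lines against sgControl, the largest being 0.0412, so unchanged genes, against which a scaling could be judged, were lacking. One feature without a symbol held 16.1% to 32.9% of the table sum. The study's methods describe a median ratio normalization for RNA-seq reads aligned to a human genome. They state none for these mouse libraries. Median of ratios computed over the genes of this table alone moved the median of all genes against sgControl by -0.15 in sg1, -0.04 in sg2 and -0.01 in sg3 on the log2 scale, and scaling to the table total moved it by -0.21, -0.20 and -0.10. Of the epithelial markers 5 were in the table (Cgn, Dsc2, Krt8, Krt18 and Krt19) and none was a member. Their summed signal was 12554 to 13022 in the controls, 23028 to 25326 with sg1, 12029.6 to 12361 with sg2 and 9995 to 11234 with sg3. Krt8 and Krt18 made up most of that sum, while Dsc2 had means of 203 in the controls, 1.4 with sg1, 4.47 with sg2 and 556 with sg3. Cd68, the 1 immune marker in the table, had 102 to 154 in the controls, 283 to 327 with sg1, 154 to 169 with sg2 and 139 to 159 with sg3. No endothelial or fibroblast marker was in the table. The part of these differences in the results below was not tested.

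The reductions were mostly modest. The summed signal of the 110 members was 167254 to 172443 in the controls, 138401 to 144403 with sg1, 145270.2 to 150319.7 with sg2 and 137948 to 151932 with sg3. Since every member lies below sgControl by the rule, these sums could not overlap. In bulk RNA, less transcript per cell and fewer cells with it cannot be told apart. The median member kept 80.8% of its sgControl mean with sg1, 86.8% with sg2 and 84.3% with sg3, and line values are given in that order below. Averaged over the 3 lines, 5 members kept 90% or more, 77 kept 80 to 90%, 17 kept 50 to 80% and 11 kept less than 50%. On the log2 scale the median member difference from sgControl was -0.31 in sg1, -0.20 in sg2 and -0.25 in sg3, beside a median over all 982 genes of 0.20, -0.02 and -0.03. With limma, 106 members passed the threshold as lower in sg1 (39.1% of all genes did, and 50.1% were higher), 81 in sg2 (29.4% lower, 30.2% higher) and 95 in sg3 (33.4% lower, 26.5% higher). The rule used this contrast, so nothing is read from these counts.

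The size of the reduction went with the level of the gene. The 95 members with a mean of at least 200 in sgControl kept 61.0% to 91.6% of it, with a median of 85.2%, and 0 of them were under 50%. The 15 members under 200 kept 15.1% to 72.3%, with a median of 37.4%, and 11 of them were under 50%. A gene with few reads has a wider spread, so a small difference could hardly keep its libraries apart, and the rule takes few low genes with small differences.

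**Figure D1:**
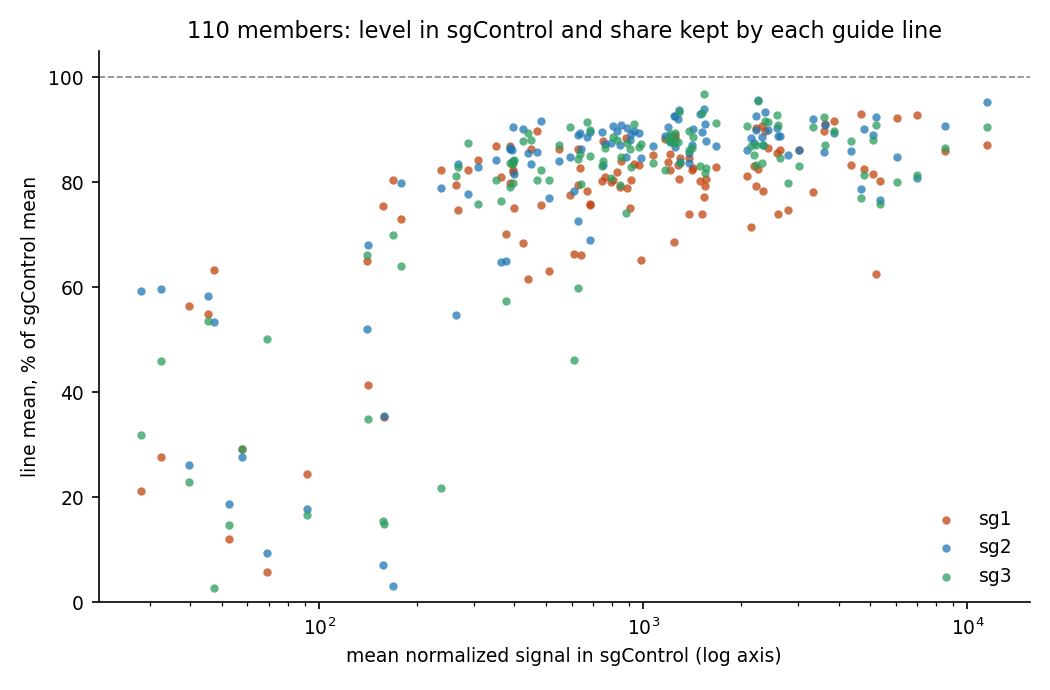
Each of the 110 members is drawn 3 times, once per guide line, with its mean normalized signal in sgControl on the log x axis and the line mean as a percent of the sgControl mean on the y axis (dashed line, 100%). Members with 200 or more in sgControl sit mostly between 60% and 95%, and the points under 50% lie to the left of 200, except Mum1l1 and Itpkb in sg3.

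The members nearest the threshold were separated by very little. Nob1, an endonuclease that finishes the small ribosomal RNA, entered with a lowest control value of 1161.15 against a highest knockout value of 1161.05. The cargo lectin Lman2 entered with 3716.01 against 3715.2 and Impdh2-ps with 3149.69 against 3147.65. Gfm1, a mitochondrial elongation factor, stayed just outside with 1516.73 against 1516.95, as did Ccdc85c (1523.41 against 1524.65) and Epb41 (2253.74 against 2256.69). The lowest control value came from sgControl replicate 3 in 5 of these 6 genes and from replicate 1 in Epb41. Over the 110 members replicate 3 gave the lowest control value 52 times, replicate 2 34 times and replicate 1 24 times.

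The rule did not compare sg1, sg2 and sg3 with each other, and the differences among them were tested. The rule still bears on them, because it used the highest of the 9 knockout values. A gene with 1 line close to sgControl could not pass, so members are expected to differ less among lines than other genes. The choice of lowered genes also bears on the direction, because it favors as lowest a line with larger differences from sgControl. Among the lines 45 members (40.9%) passed the limma test of equal means at an adjusted p of 0.05, where 75.3% of all 982 genes did. The other 65 did not pass, which does not show that their lines were alike. Against sg2, sg1 was lower in 33 members and higher in 8, while over all genes sg1 was lower in 26.7% and higher in 40.9%. Against sg3, sg1 was lower in 22 members and higher in 12, beside 23.2% lower and 42.5% higher over all genes. Between sg2 and sg3 few members passed: sg2 was lower in 5 and higher in 8, beside 13.4% lower and 17.1% higher over all genes.

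The line with the lowest mean was sg1 for 63 members, sg3 for 31 and sg2 for 16. Among the 736 genes the exclusions left, sg1 was lowest in 35.9%, sg2 in 28.3% and sg3 in 35.9%. Those 736 also held genes above sgControl, which the rule kept out of the members. Over all genes sg1 had the most calls against sgControl, with 39.1% lower and 50.1% higher. In sg2 29.4% were lower and 30.2% higher, and in sg3 33.4% and 26.5%. The low place of sg1 is therefore not read as a trait of the members. The splits of sg1 against the other lines kept their direction under the other scalings. With median-of-ratios scaling sg1 was lower than sg2 in 65 members and higher in 4, and lower than sg3 in 65 and higher in 7, beside 360 lower and 341 higher and 352 lower and 338 higher of all 982 genes. With scaling to the table total the counts were 23 and 6 against sg2, and 33 and 7 against sg3, beside 220 and 371 and 274 and 333 of all genes. Between sg2 and sg3 the split was 6 lower and 6 higher with median of ratios and 6 lower and 5 higher with the table total, so it had no steady direction.

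**Figure D2:**
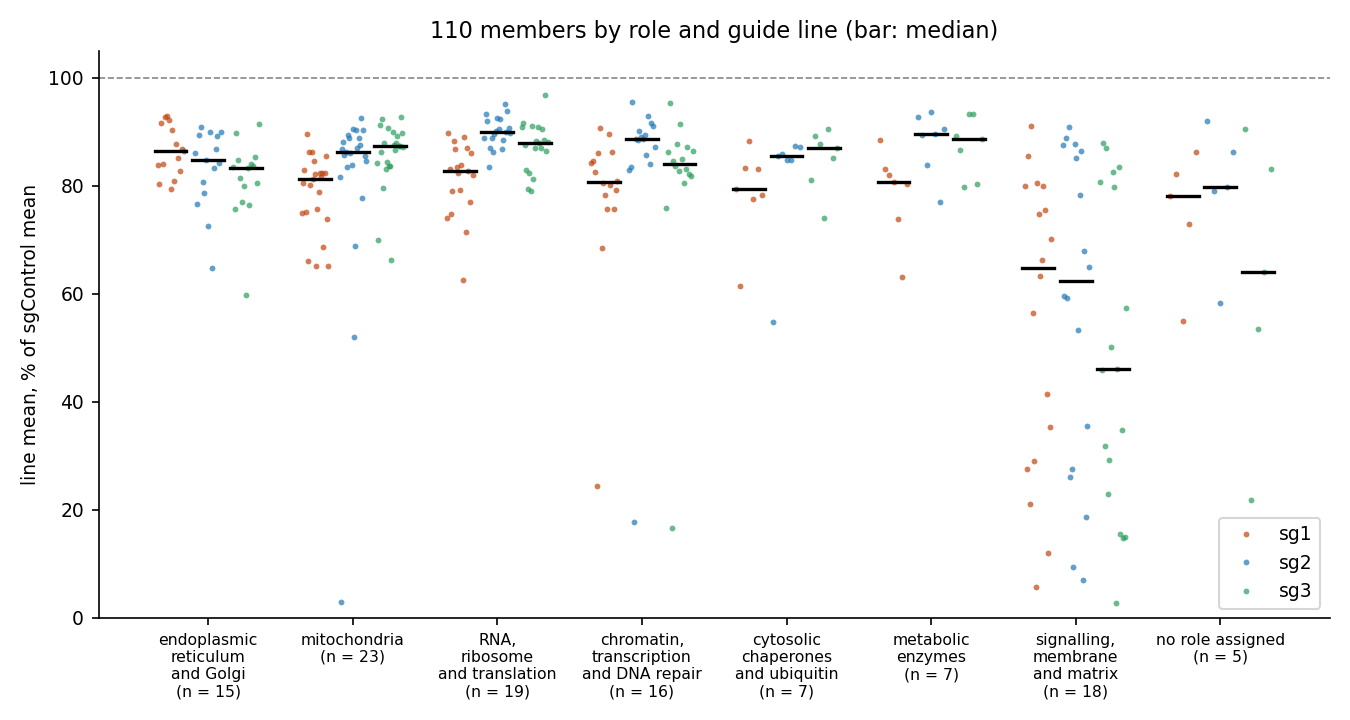
The 110 members are grouped by role on the x axis, with the line mean as a percent of the sgControl mean on the y axis and 1 point per member and line; black bars are medians. The sg1 median is the lowest of the 3 lines in mitochondrial, RNA and translation, chromatin, chaperone and metabolic members, and the highest in signalling, membrane and matrix members and in ER and Golgi members (86.4% against 84.9% in sg2 and 83.3% in sg3). Both orders turned with median-of-ratios scaling, the ER and Golgi one to log2 medians of -0.37 for sg1 against -0.28 for sg2 and -0.27 for sg3, and the signalling one to -0.77 for sg1 against -0.70 for sg2, with sg3 still lowest at -1.10.

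The ER and Golgi gave 15 members, and with the authors' scaling they were the one role in which sg1 was never the lower line at the threshold. Against sg2, sg1 was higher in 4 (Pdia4, Pdia6, Rpn1 and St3gal6) and lower in 0. Against sg3, sg1 was higher in 4 (Pdia4, Pdia6, Rpn1 and Sdf2l1) and lower in 0. Over all genes sg1 was higher than sg2 in 40.9% and than sg3 in 42.5%, so the share of higher calls in this role was under that of the table. With scaling to the table total sg1 was likewise higher than sg2 in 2 and than sg3 in 1, and lower in 0. Of all 982 genes 371 and 333 were then higher. With median of ratios the calls turned: sg1 was lower than sg2 in 3 of the 15 and higher in 0, and against sg3 it was lower in 3 and higher in 1. Of all 982 genes 360 and 352 were then lower and 341 and 338 higher. The share of lower calls in this role was thus under that of the table. The median difference of the 15 from sg2 to sg1 was 0.04 with the authors' scaling, 0.03 with the table total and -0.07 with median of ratios, and from sg3 to sg1 it was 0.08, -0.03 and -0.06. Over all genes these medians were 0.07, 0.07 and -0.04 from sg2 to sg1, and 0.11, -0.002 and -0.04 from sg3 to sg1. The role thus lay under the table with each of these scalings.

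Pdia4 and Pdia6, disulfide isomerases that help proteins fold in the ER lumen, showed the higher sg1 signal of the authors' scaling most clearly. Pdia4 had normalized signals of 6919, 7128 and 6892 in the controls, 6299, 6626 and 6482 with sg1, 5506, 5446 and 5956 with sg2 and 5218, 5912 and 5912 with sg3. All 3 sg1 libraries lay between the control and the other lines without overlap. The Pdia4 difference from sg2 to sg1 was 0.20 ± 0.05 on the log2(value + 1) scale (SE, limma adjusted p = 0.00362), and the line kept 92.7%, 80.7% and 81.4% of control. Pdia6 had 4572, 4737 and 4764 in the controls, 4213, 4499.8 and 4376 with sg1, 3637, 3497 and 3939.8 with sg2 and 3297, 3702 and 3842 with sg3. Its sg1 libraries again stood apart from the 6 libraries of sg2 and sg3, with log2 differences of 0.24 ± 0.06 against sg2 (adjusted p = 0.00165) and 0.27 ± 0.06 against sg3 (adjusted p = 0.000559). Under every other scaling both genes missed the threshold among lines, with adjusted p of 0.147 to 0.342 for Pdia4 and 0.0510 to 0.124 for Pdia6.

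Rpn1, a subunit of the oligosaccharyltransferase that attaches N-linked sugars, had 5941, 6354 and 5940.0 in the controls, 5519.8, 5856 and 5423 with sg1, 5158, 5077 and 5237 with sg2 and 4682, 4957 and 4943 with sg3. Its means stepped down from sg1 to sg2 to sg3, the step from sg2 to sg3 did not pass (adjusted p = 0.216), and the lines differed with an adjusted p of 0.00338, which rose to between 0.456 and 0.653 under the other scalings. Sdf2l1, a partner of the ER chaperone machinery, had 599, 689 and 590.1 in the controls, 465, 546 and 481 with sg1, 428, 478 and 458 with sg2 and 361, 389.8 and 373 with sg3. The sg3 libraries were the lowest, at 59.8% of control, under all sg1 and sg2 libraries, with an adjusted p of 0.000817 among lines. Table-total scaling brought it to 0.0502.

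Hyou1, an ER chaperone of the HSP70 family, had 5307, 5678 and 5173 in the controls, 4301, 4541 and 4126 with sg1, 4269, 4178 and 3935 with sg2 and 3786, 4341 and 4119 with sg3, and the lines kept 80.3%, 76.6% and 75.8%. Its 9 knockout libraries overlapped between lines (adjusted p among lines 0.38). Syvn1, the ubiquitin ligase that marks misfolded ER proteins, kept 85.1%, 86.8% and 83.7%, and Ero1lb, an oxidase that recharges disulfide isomerases, kept 83.9%, 86.1% and 83.4%. Both were among the 8 members of at least 50 in sgControl whose lines lay closest together. Lman2 kept 91.5%, 89.4% and 89.7%. The other ER and Golgi members were Ssr2 of the translocon-associated complex, the sialyltransferases St3gal6 and St6galnac4, the deubiquitinase Usp19, Txndc11, Minpp1 and Unc50. They kept 74.0% to 89.2% of control on the mean of the lines.

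The promoters of 94 members, 4 of them under a newer symbol, were in the RefSeq table of start sites (build GRCm38.p6, 250 bases before to 50 after each start), and those of 13 ER and Golgi members. The ER stress response element, the site through which folding genes are known to answer unfolded protein, was searched on both strands as CCAAT and CCACG held 9 bases apart. It was found in 3 members, Ero1lb, Pdia6 and Syvn1, which is 3.19% of the 94, beside 0.323% of 619 other table genes (2, Calr and Hspa5) and 0.137% of 27025 RefSeq genes (37). These 3 windows are shown because they are the members that carry it, with the element in capitals, on the strand of the gene.
Ero1lb (chr13:12565633-12565932, plus strand), element at -201, on the reverse strand: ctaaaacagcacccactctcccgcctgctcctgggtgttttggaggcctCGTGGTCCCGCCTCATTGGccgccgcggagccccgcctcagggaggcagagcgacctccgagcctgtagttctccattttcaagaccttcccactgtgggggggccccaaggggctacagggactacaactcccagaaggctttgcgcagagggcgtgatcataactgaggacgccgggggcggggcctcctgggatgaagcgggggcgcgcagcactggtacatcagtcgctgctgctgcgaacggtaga
Pdia6 (chr12:17266339-17266638, plus strand), element at -98: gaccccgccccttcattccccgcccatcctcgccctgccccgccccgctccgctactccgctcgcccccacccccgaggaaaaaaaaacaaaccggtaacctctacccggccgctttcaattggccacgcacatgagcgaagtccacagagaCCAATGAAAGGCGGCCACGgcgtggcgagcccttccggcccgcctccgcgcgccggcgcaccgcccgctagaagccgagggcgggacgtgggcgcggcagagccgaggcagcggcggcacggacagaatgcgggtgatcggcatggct
Syvn1 (chr19:6046326-6046625, plus strand), element at -44: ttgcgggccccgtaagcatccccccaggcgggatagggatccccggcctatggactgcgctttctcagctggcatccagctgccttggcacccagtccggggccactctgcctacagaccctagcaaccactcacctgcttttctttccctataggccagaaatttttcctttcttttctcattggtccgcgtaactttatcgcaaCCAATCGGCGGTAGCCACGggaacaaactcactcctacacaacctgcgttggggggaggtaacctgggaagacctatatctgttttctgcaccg
The adjusted p among lines was 0.000787 for Pdia6, a call lost under every other scaling, 0.905 for Ero1lb and 0.755 for Syvn1, and the genes were not compared with each other. A match says only that these letters are present.

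The list of chaperone and unfolded protein response genes held 47 genes, of which 13 were in the table and 5 were members (Fkbp4, Hyou1, Pdia4, Pdia6 and Sdf2l1). Of the 13, 4 were lower than sgControl and 2 higher in sg1, 10 lower and 1 higher in sg2, and 11 lower and 1 higher in sg3. These counts include the 5 members chosen by the rule, and of all genes 39.1%, 29.4% and 33.4% were lower. The sg1 count turned on scaling: 11 of 13 were lower in sg1 with median of ratios and with the table total. The log2 median of all genes in sg1 moved too, from 0.20 with the authors' scaling to 0.05 and -0.01. The share of all genes lower under these scalings is not given here. Calr and Hspa5, the lumenal chaperones calreticulin and BiP, were not members because of sg1. Hspa5 had a mean of 16149 ± 491 in sgControl and 15944 ± 140 in sg1, where it was not called (adjusted p = 0.755), against 12382 ± 715 in sg2 (1.96e-05) and 12265 ± 745 in sg3 (1.38e-05, SD, n = 3 throughout, limma). Calr had 20247 ± 1087 in the controls, 18774 ± 998 with sg1 (adjusted p = 0.0930), 15145 ± 614 with sg2 (1.88e-05) and 15408 ± 837 with sg3 (3.70e-05). These calls are with the authors' scaling. With median of ratios and with the table total 11 of 13 were lower and 1 higher in sg1, so Calr and Hspa5 were not both uncalled there.

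**Figure D3:**
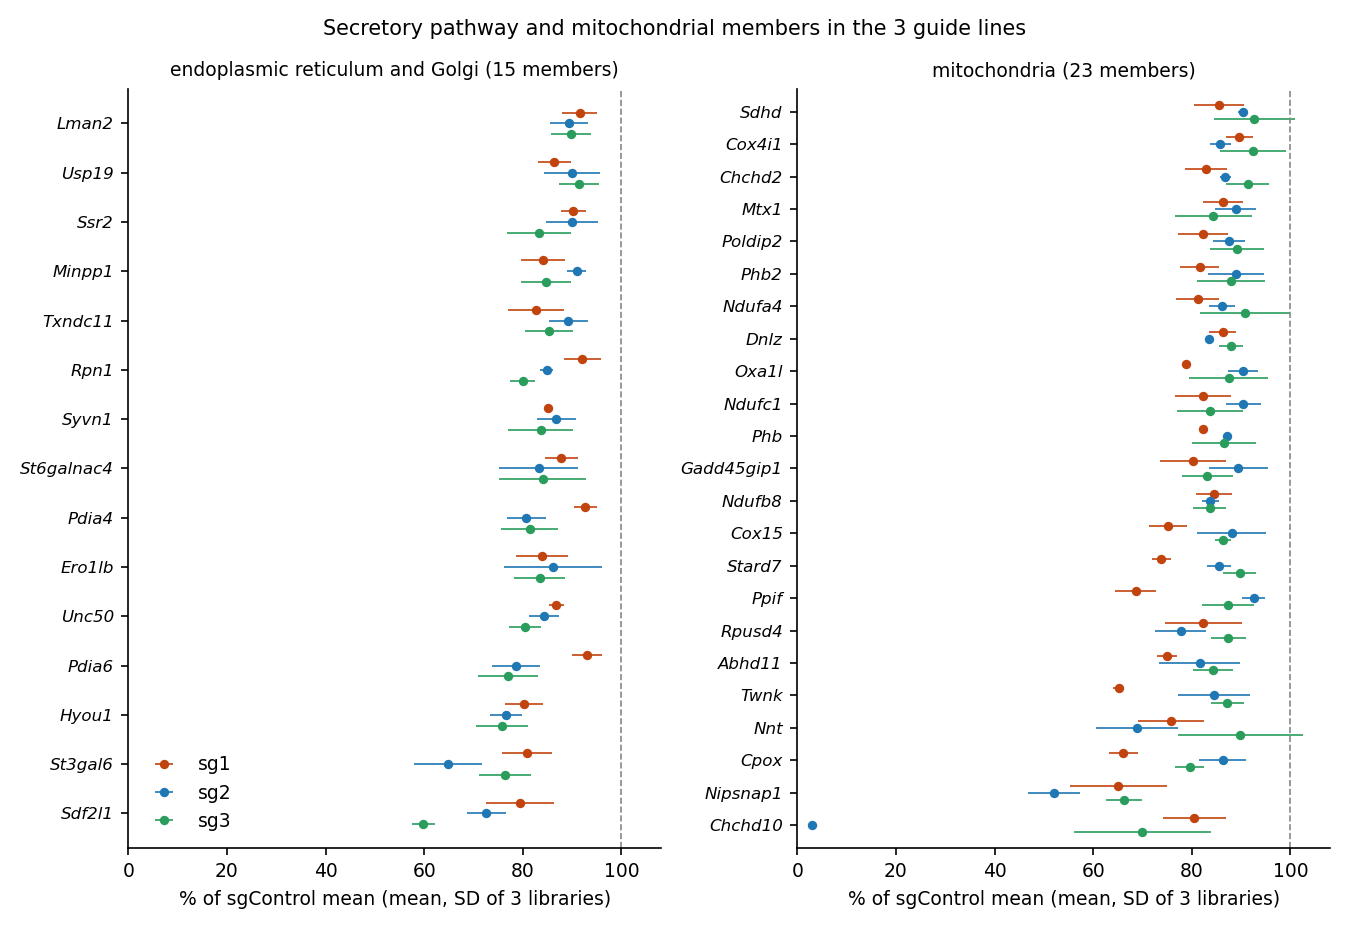
Line means of the 15 ER and Golgi members (left) and the 23 mitochondrial members (right) are drawn as a percent of the sgControl mean on the x axis, with bars for the SD of 3 libraries, ordered by the mean of the lines. On the left sg1 is the rightmost point for Pdia4, Pdia6 and Rpn1, which did not pass among lines with the other scalings, and on the right it is the leftmost for Twnk, Ppif, Stard7 and Cpox; Chchd10 stands alone at 3.04% in sg2.

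Mitochondria gave 23 members. Against sg2, sg1 was lower in 6 (Cox15, Cpox, Oxa1l, Ppif, Stard7 and Twnk) and higher in 1 (Chchd10). Against sg3 it was lower in 7 (Chchd2, Cox15, Cpox, Ndufa4, Ppif, Stard7 and Twnk) and higher in 0. Over all genes sg1 was lower in 26.7% and 23.2%, so the share lower than sg2 was near that of the table and the share lower than sg3 somewhat over it. The median difference was -0.09 from sg2 to sg1 and -0.12 from sg3 to sg1, beside 0.07 and 0.11 over all genes. Under median-of-ratios scaling sg1 was lower than sg2 in 15 and higher in 1, and lower than sg3 in 18 and higher in 0 (360 and 352 of all 982 genes were lower). With the table total the counts were 5 and 1 against sg2 and 13 and 0 against sg3 (220 and 274 of all genes were lower).

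Twnk, the helicase that unwinds mitochondrial DNA, had 1027, 1006 and 911 in the controls, 645, 628 and 648 with sg1, 880.3, 859.7 and 748 with sg2 and 838, 895 and 836 with sg3. Its sg1 libraries lay far under the rest, at 65.2% of control against 84.5% in sg2 and 87.3% in sg3 (adjusted p among lines 6.46e-05). Ppif, cyclophilin D of the permeability transition pore, was also lowest in sg1, with 1189 to 1342 in the controls, 809 to 911 with sg1, 1124 to 1184 with sg2 and 1035 to 1162 with sg3 (log2 difference from sg2 to sg1 -0.43 ± 0.07, adjusted p = 1.98e-05). Cpox, an enzyme of heme synthesis, kept 66.1%, 86.3% and 79.6%. Cox15, which makes the heme of cytochrome oxidase, kept 75.1%, 88.1% and 86.3%, and Stard7, a lipid carrier to mitochondria, kept 73.9%, 85.5% and 89.7%. In these 5 genes sg1 was the lowest line. Ppif, Cpox, Cox15 and Stard7 were named after their values were seen.

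Subunits of the respiratory chain came next. Cox4i1 of cytochrome oxidase had 3617, 3637 and 3598 in the controls, 3242, 3343 and 3145 with sg1, 3021, 3114 and 3172 with sg2 and 3074, 3537 and 3418 with sg3. Its control libraries spanned 3598 to 3637, and sg3 replicate 2 came closest to them. Sdhd of succinate dehydrogenase kept 85.5%, 90.4% and 92.7%, Ndufa4 kept 81.2%, 86.2% and 90.7%, and Ndufb8 and Ndufc1 of complex I kept 84.02% and 85.4% on the mean of the lines. Ndufb8 had the smallest spread among lines of the members of at least 50 in sgControl, at 84.6%, 83.8% and 83.6%. Of the prohibitins, ring proteins of the inner membrane, Phb had 1358 to 1434 in the controls, 1151 to 1169 with sg1, 1219.8 to 1230.3 with sg2 and 1150.5 to 1322 with sg3, and Phb2 had 4910.4 to 5213 in the controls, 3989 to 4384 with sg1, 4211 to 4770.0 with sg2 and 4191 to 4877 with sg3. Neither passed among lines (adjusted p 0.377 and 0.156). Cox4i1, Ndufa4, Sdhd, Phb and Phb2 passed among lines only with other scalings, the replicate block or a library left out.

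The remaining mitochondrial members were the insertase Oxa1l, the transhydrogenase Nnt, the small protein Chchd2, Mtx1 of the import machinery, the ribosome-associated Gadd45gip1, the RNA modifier Rpusd4, Poldip2, Dnlz, Abhd11 and Nipsnap1. Nnt was lowest in sg2, at 68.9% of control against 75.7% in sg1 and 89.9% in sg3, with sg2 under sg3 (adjusted p = 0.00834). Nipsnap1, with 121 to 160.1 in sgControl, kept 61.1% on the mean of the lines. Of the list of mitochondrial respiration, import and proteostasis genes (61), 9 were in the table and 6 were members. All 9 were lower than sgControl in sg1 and in sg2 and 3 in sg3, with 0 higher, and the sg3 count was 6 with median of ratios and 7 with the table total. The 6 members were chosen for lying below sgControl, so these counts draw on the rule, and of all genes 39.1%, 29.4% and 33.4% were lower in the 3 lines with the authors' scaling. That share is not given here for the other scalings. The log2 median of all genes in sg3 was -0.03 with median of ratios and -0.13 with the table total.

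Chchd10, a small protein of the mitochondrial intermembrane space, was a case of its own. It had 167, 165 and 174 in the controls, 147, 125 and 136 with sg1, 4.18, 5.97 and 5.23 with sg2 and 91.9, 137 and 126 with sg3. In sg2 it was down to 3.04% of control, a 32.9-fold lower mean, while sg1 and sg3 kept 80.5% and 69.99%. Each sg2 library held only a few estimated reads, so the fold has a wide counting error. It had the smallest p among lines of all members (2.19e-13).

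The 19 members that act on RNA, ribosomes and translation kept 80.4% to 91.6% of control on the mean of the lines. In this role sg1 was lower than sg2 in 8 (Bzw2, Clns1a, Hnrnpa0, Ipo4, Nsun2, Pabpc4, Rack1 and Sdad1) and higher in 0, and lower than sg3 in 4 (Bzw2, Nsun2, Pabpc4 and Sdad1), beside 26.7% and 23.2% of all genes. The counts were 16 and 16 of 19 under median of ratios (360 and 352 of all 982 genes) and 5 and 6 with the table total (220 and 274 of all genes), with 0 higher.

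Nsun2, which methylates cytosines in transfer RNA and is known as a MYC target, differed most. It had 5322, 5315 and 5079 in the controls, 3297, 3359 and 3179 with sg1, 4840.4, 4779.8 and 4898 with sg2 and 4501, 4916 and 4866 with sg3. The 3 sg1 libraries lay under the 6 libraries of sg2 and sg3 by a wide margin, with log2 differences of -0.56 ± 0.05 and -0.54 ± 0.05 (adjusted p = 1.12e-08 and 2.11e-08). The poly(A)-binding protein Pabpc4 kept 71.5%, 88.5% and 86.9%, the translation regulator Bzw2 kept 73.97%, 88.8% and 90.9%, and Sdad1, a factor for the large ribosomal subunit, kept 77.1%, 93.9% and 96.7%. These 3 were chosen after their values were seen. In all 3 the sg1 libraries were the lowest.

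The most abundant member was Rack1, a scaffold on the small ribosomal subunit. It had 11421, 11565 and 11582 in the controls, 9760.2, 9859 and 10482 with sg1, 10746, 11198 and 10950.1 with sg2 and 9698, 10923 and 10669 with sg3, and the lines kept 87.1%, 95.2% and 90.5%. Its adjusted p among lines was 0.0835, and 0.000173 to 0.0461 with median of ratios, the table total without its most abundant feature, the replicate block or without sg3 replicate 1 or 2. Per kilobase of the longest transcript, Cox4i1 was the highest member with 4729 in sgControl, followed by Srsf2 with 4482, Pdia4 with 2909 and Rack1 with 2586. The splicing factor Srsf2 had 8332 to 8813 in the controls, 7251 to 7381 with sg1, 7556 to 7937 with sg2 and 6806 to 7710.4 with sg3. Hnrnpa0, an AU-rich element binding protein, was lower in sg1 and sg3 than in sg2, with 4757 to 4838 in the controls, 3745 to 4117 with sg1, 4038 to 4572 with sg2 and 3849 to 3922 with sg3 (adjusted p 0.0307). That call was lost, with adjusted p of 0.0577 to 0.363, with table-total scaling, with a spread without trend, and without sg2 replicate 1, sg2 replicate 2 or sg3 replicate 3.

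Other enzymes of ribosome and transfer RNA work kept more than Nsun2 did in sg1. The helicase Ddx56 kept 79.1%, 87.02% and 79.4%, Nob1 kept 83.8%, 90.4% and 88.3%, the transfer RNA methyltransferase Trmt1 kept 82.00%, 89.7% and 88.1% and Farsa, a subunit of phenylalanyl-tRNA synthetase, kept 88.3%, 88.8% and 82.3%. None of the 4 passed among lines with the authors' scaling and all libraries, but Ddx56, Nob1 and Trmt1 did with median of ratios and with the table total without its most abundant feature. The limma adjusted p was 0.00358 to 0.00751 for Nob1 and 0.00142 to 0.00212 for Trmt1. Ddx56 also passed without sg3 replicate 2, with 0.00455 to 0.0319 over its 3 settings. The nucleoporin Nup85 kept 89.04%, 86.7% and 87.9%. Of 87 genes listed for ribosome biogenesis 6 were in the table, all lower in sg1, 1 in sg2 and 2 in sg3. Of 35 listed for transfer RNA work 5 were in the table, of which 5, 3 and 3 were lower, and of 82 for RNA splicing and export 7, of which 6, 3 and 5 were lower, with 0 higher in any of these 3 lists, which also hold members chosen for lying below sgControl. Of all genes 39.1% were lower in sg1, 29.4% in sg2 and 33.4% in sg3. Known nucleolar genes had been left out by the rule, so the first list is not complete here. The other members of this role were Chtop, Clns1a, Coil, Gemin7, Hbs1l, Ipo4 and Rexo1.

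The 16 chromatin, transcription and DNA repair members included 1 of the deepest reductions. H2afy2, which encodes the histone variant macroH2A2, had 92.8, 85.4 and 97.3 in the controls, 12.6, 37.5 and 17.2 with sg1, 21.1, 10.2 and 17.5 with sg2 and 22.5, 9.02 and 14.2 with sg3. The highest knockout library was under 50% of the lowest control library, and the lines kept 24.4%, 17.7% and 16.6% without a difference among them that passed (adjusted p 0.48). Its estimated reads did not come out as whole numbers, and the reason was not tested. Its relative H2afy, which encodes macroH2A1, was lower by much less, with 2203, 2267 and 2281 in the controls, 1829.7, 1918 and 1822 with sg1, 2159, 2194 and 2099 with sg2 and 2166, 2169 and 2106 with sg3. H2afy was at 82.5% in sg1, under every sg2 and sg3 library, and at 95.6% and 95.4% in sg2 and sg3 (adjusted p 0.00054).

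In this role sg1 was lower than sg2 in 7 (H2afy, Pcgf6, Prmt6, Prmt7, Ssbp4, Ung and Wdr5) and higher in 0, and lower than sg3 in 3, beside 26.7% and 23.2% of all genes. Pcgf6, a Polycomb protein of the PRC1.6 complex, kept 68.4%, 90.2% and 87.7% (adjusted p 0.000259). The arginine methyltransferases Prmt6 and Prmt7 kept 78.2% and 75.8% in sg1, and the uracil glycosylase Ung 75.7%. Wdr5, a core subunit of the H3K4 methyltransferases and a partner of MYC, kept 79.2%, 91.1% and 81.8%. These 5 were named after their values were seen. Mbd3 of the NuRD complex kept 90.6%, 88.5% and 83.6%, and the DNA polymerase delta subunit Pold2 kept 80.5%, 89.1% and 82.8%. The transcription factor Foxc1 (84.5%, 83.6% and 86.2%) and Thap11 (86.3%, 84.1% and 87.1%) were among the members whose lines lay closest together. Aunip, Kat2a, Rxrb and Xrcc1 completed the role, at 81.0% to 86.5% on the mean of the lines.

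Cytosolic chaperones and ubiquitin factors gave 7 members, of which 5 differed among lines, beside 75.3% of all genes. Fkbp4, an HSP90 cochaperone of steroid receptors, had 4202 to 4495 in the controls, 3551 to 3746 with sg1, 3592 to 3892 with sg2 and 3517 to 4118 with sg3. It did not pass among lines with the authors' scaling (adjusted p 0.486) and did with median of ratios and with the table total without its most abundant feature (0.00116 and 0.00386). Dtx4, a ubiquitin ligase linked to Notch, was lowest in sg2, with 282, 230.4 and 280.3 in the controls, 211, 224 and 194 with sg1, 169, 132 and 132 with sg2 and 205, 228 and 209.9 with sg3. The sg2 libraries did not overlap those of sg1 or sg3 (adjusted p 0.000436). The F-box protein Fbxo17 was lowest in sg1 at 61.5%, and the HSP70 nucleotide exchange factor Hspbp1 was lowest in sg3 at 74.1%. The ubiquitin-linked Ubac1, Ubfd1 and Ubqln4 kept 84.2% to 85.2% on the mean of the lines. The metabolic enzymes included Aco1, Adh5, Aldh16a1, Aldh9a1, Nln and Qdpr. Qdpr, which regenerates tetrahydrobiopterin, kept 63.2%, 76.9% and 80.4%, with sg1 values of 322, 315 and 334 under all other libraries. Dtx4, Fbxo17, Hspbp1 and Qdpr were named after their values were seen.

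Signalling, membrane and matrix genes (18 members) held most of the deep reductions: 10 of the 11 members under 50% of control were here, H2afy2 being the other. The median of the role was 64.8% of control in sg1, 62.3% in sg2 and 46.0% in sg3. All 11 members under 50% had means under 200 in sgControl.

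Rassf9, a Ras association domain protein, kept least of all members. It had 60.9, 31.7 and 64.8 in the controls, 5.32, 5.82 and 7.73 with sg1, 10.4, 11.9 and 6.97 with sg2 and 13.97, 3.85 and 5.47 with sg3. All 9 knockout libraries were under the lowest control library by more than 2-fold, and the lines kept 11.98%, 18.6% and 14.8%. Bdkrb2, the bradykinin B2 receptor, was the most even of the deep reductions, with 49.1, 63.5 and 60.1 in the controls, 14.9, 15.5 and 19.9 with sg1, 16.7, 17.9 and 13.1 with sg2 and 18.6, 14.4 and 17.3 with sg3. Its lines kept 29.1%, 27.6% and 29.2% (adjusted p among lines 0.947). Tfpi, the inhibitor of the tissue factor clotting pathway, had 147, 153 and 175 in the controls, 58.5, 54.3 and 55.2 with sg1, 50.1, 50.8 and 67.97 with sg2 and 23.3, 22.1 and 25.5 with sg3. Here sg1 and sg2 overlapped and sg3 lay under both, with a log2 difference from sg3 to sg1 of 1.21 ± 0.17 (adjusted p = 6.14e-06).

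In several genes 1 or 2 lines were far lower than the rest. Fzd7, a Wnt receptor, had 51.1, 40.8 and 49.6 in the controls, 30.8, 31.03 and 27.6 with sg1, 28.2, 21.9 and 25.3 with sg2 and 1.16, 1.93 and 0.912 with sg3. In sg1 and sg2 it kept 63.3% and 53.3%, and in sg3 each library was at or under the floor of 3 estimated reads, so that sg3 was at least 15.5-fold lower than sgControl (counting error only, floor per library). Osbpl7, a lipid transfer protein of the oxysterol-binding family, had 147, 143 and 180.2 in the controls, 119, 118 and 118 with sg1, 15.7, 6.97 and 10.5 with sg2 and 23.3, 32.7 and 17.3 with sg3. It kept 75.5% in sg1 but 7.03% in sg2 and 15.6% in sg3, and all 3 pairs of lines differed (adjusted p = 2.96e-09, 4.45e-07 and 0.0026 for sg1 with sg2, sg1 with sg3 and sg2 with sg3). Col24a1, a fibrillar collagen, showed the reverse, with 62.9, 47.2 and 96.3 in the controls, 3.19, 1.94 and 6.63 with sg1, 9.40, 3.98 and 6.10 with sg2 and 36.1, 34.7 and 32.8 with sg3. It was near the floor in sg1 and sg2 and kept 50.2% in sg3 (adjusted p among lines 4.76e-06). Its control libraries ranged widely, the highest being replicate 3.

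**Figure D4:**
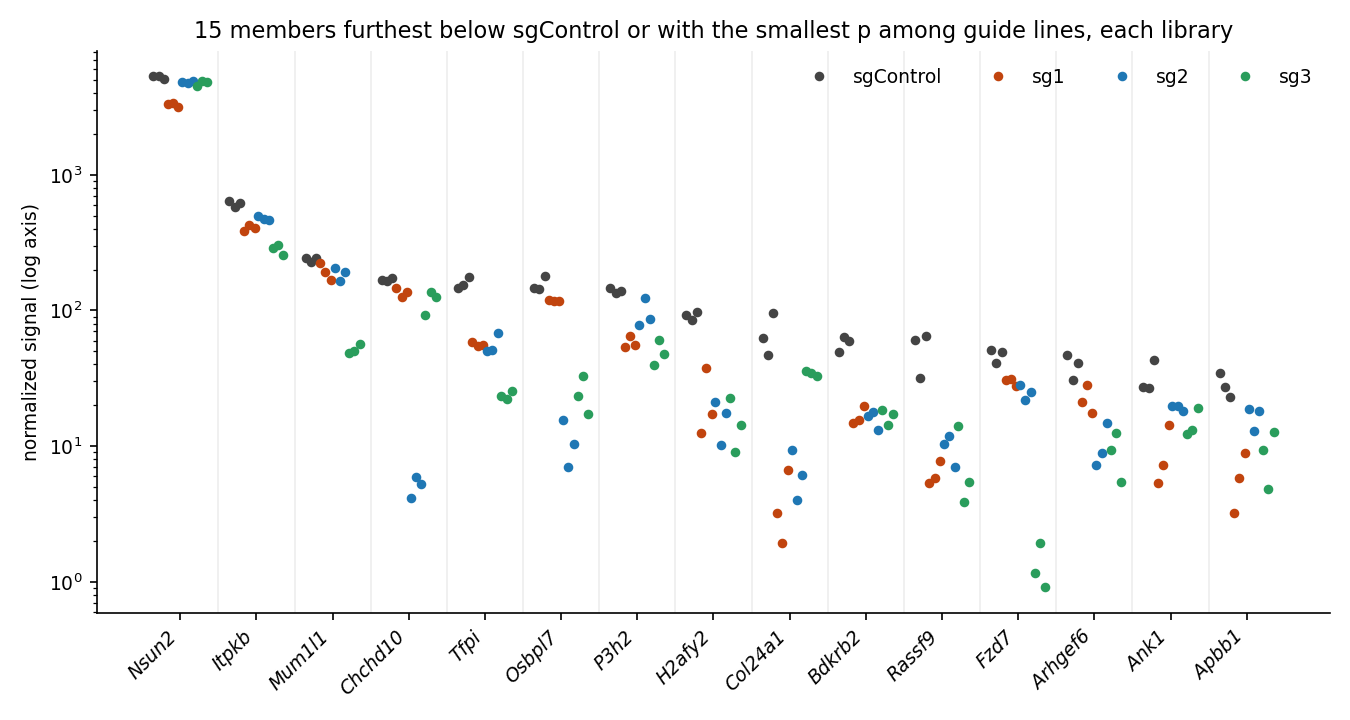
Normalized signal on a log axis of each of the 12 libraries for 15 members, those furthest below sgControl on the log2 scale and those with the smallest p among lines, ordered by the sgControl mean; colors give the line. The 3 points of a line stay close in most genes, and separate gaps mark Chchd10 in sg2, Mum1l1 and Fzd7 in sg3, and Osbpl7 in sg2 and sg3.

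Other reductions differed by line in size. Mum1l1, a PWWP domain gene on the X chromosome with no role assigned here, had 243, 226 and 243 in the controls, 224, 192 and 169 with sg1, 205, 165 and 192 with sg2 and 48.9, 50.1 and 56.6 with sg3. It kept 82.3% in sg1 and 78.9% in sg2 against 21.9% in sg3 (adjusted p among lines 3.26e-10). Itpkb, a kinase that phosphorylates inositol trisphosphate, had 636, 583 and 617 in the controls, 385, 429 and 404 with sg1, 497, 475 and 464 with sg2 and 289.8, 302 and 255 with sg3. The 3 lines did not overlap, in the order sg2, sg1 and sg3 from high to low, and each pair passed. P3h2, a prolyl hydroxylase of collagens, kept 41.4%, 67.9% and 34.9%, and Arhgef6, an exchange factor for small GTPases, kept 56.4%, 26.1% and 22.9%. Ank1, an ankyrin, kept 27.6%, 59.6% and 45.9%, and Apbb1, an adaptor of the amyloid precursor protein, kept 21.1%, 59.2% and 31.8%. In Ank1 and Apbb1 sg1 was the lowest line, with values of 5.32, 7.21 and 14.4 and 3.19, 5.82 and 8.84, which are few reads. The adjusted p among lines was 0.000652 for P3h2, 0.00696 for Arhgef6, 0.0188 for Ank1 and 0.012 for Apbb1. Without sg1 replicate 1 or 2 that of Ank1 was 0.0643 to 0.106, and without sg1 replicate 2 that of Arhgef6 was 0.0507.

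Vegfa, the angiogenic growth factor, was lower at a higher level of expression. It had 372, 332 and 426 in the controls, 257, 251 and 285 with sg1, 301, 216 and 218 with sg2 and 209.5, 230.0 and 209 with sg3. The lines kept 70.2%, 65.00% and 57.4%, the control libraries spread from 332 to 426, and sg1 was higher than sg3 (log2 difference 0.29 ± 0.12, adjusted p = 0.0491), while the joint test among lines did not pass (adjusted p 0.117, and 0.0310 without sg2 replicate 1). Dusp9, a phosphatase of MAP kinases, kept 74.7%, 85.1% and 79.9%. The other members of this role were the small GTPase Arf6, Ankrd27, Dgcr2, Mapkbp1 and Abhd17c, at 82.8% to 89.7% on the mean of the lines. The members with no role assigned were Wdr89, Impdh2-ps, Mum1l1, Tmem141 and Tmem50b. Impdh2-ps had 3149.7 to 3475 in the controls, 2459 to 2835 with sg1, 2999 to 3148 with sg2 and 2914 to 3145 with sg3 and differed among lines (adjusted p 0.00215), and since it is a copy of Impdh2 its reads cannot be told from those of the parent gene where the sequence is shared.

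The 8 members of at least 50 in sgControl with the smallest range of line means were Ero1lb, Foxc1, Lman2, Ndufb8, Nup85, Syvn1, Thap11 and Wdr89. They kept 84.0% to 90.2% of control on the mean of the lines. Wdr89 had 2894 to 3232 in the controls, 2430.1 to 2719 with sg1, 2440.3 to 2741 with sg2 and 2458 to 2525 with sg3. They were picked for this range, so their p among lines carries no evidence that the lines were alike, and with other scalings Foxc1, Lman2 and Ndufb8 passed among lines (adjusted p 0.0147 to 0.0437).

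A second promoter motif, the E-box CACGTG that MYC and related factors are known to bind, reads the same on both strands. It was in 9 of the 94 member promoters (9.57%), 16.8% of 619 other table genes and 8.09% of all RefSeq genes. The members were Bzw2, Clns1a, Ipo4, Nln, Phb, Rpusd4, Sdad1, Tfpi and Ubfd1. The windows of Bzw2, where sg1 was lower than the other lines, and Phb, which passed among lines only with other scalings, are shown, with the motif in capitals, on the strand of the gene.
Bzw2 (chr12:36156776-36157075, minus strand), motif at -91: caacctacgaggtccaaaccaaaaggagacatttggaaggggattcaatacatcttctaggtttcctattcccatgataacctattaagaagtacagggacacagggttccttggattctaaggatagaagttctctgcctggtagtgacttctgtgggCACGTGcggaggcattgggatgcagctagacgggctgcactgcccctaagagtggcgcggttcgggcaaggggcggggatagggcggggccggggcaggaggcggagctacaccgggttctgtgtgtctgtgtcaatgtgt
Phb (chr11:95666707-95667006, plus strand), motif at -232: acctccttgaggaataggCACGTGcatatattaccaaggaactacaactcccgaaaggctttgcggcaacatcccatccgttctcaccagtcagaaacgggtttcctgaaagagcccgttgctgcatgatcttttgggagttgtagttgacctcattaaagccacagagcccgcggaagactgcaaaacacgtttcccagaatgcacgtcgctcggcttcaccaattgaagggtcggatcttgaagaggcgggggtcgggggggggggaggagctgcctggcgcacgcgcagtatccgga
A run of 4 guanine triplets that can fold into a G-quadruplex was in 33.0% of member promoters, 34.9% of the other table genes and 20.4% of RefSeq genes, and a CCAAT box in 43.6%, 41.4% and 41.1%.

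The members were spread over 18 chromosomes, with at most 11 on 1 (chromosome 11). Among them 15 pairs of neighbouring members were within 1 Mb. Cox15, Ndufb8 and Twnk lay in a row on chromosome 19, Trmt1, Gadd45gip1 and Farsa on chromosome 8, and Ubqln4, Ssr2 and Mtx1 on chromosome 3. By the longest annotated transcript the members were shorter than the other 626 genes the exclusions left, with a median of 2986 against 4010.5 bases, and their GC content was 52.5% against 50.3%. These are descriptions of chosen genes. Of the 57 members with all 12 values under 1000, 42 had whole estimated reads in at least 11 libraries, to within 0.05 reads, and 10 had them in at most 3 (Abhd11, Aldh16a1, Cox15, Gadd45gip1, H2afy2, Minpp1, Mtx1, Nnt, Prmt6 and St3gal6). Why the estimated reads of those 10 were not whole was not tested.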

How the data were processed

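The authors deposited 1 table of normalized signal per gene for 12 libraries of 6DT1 cells. Per the labels, the submitters' processing notes name Partek, STAR (version 2.7.8a) and DESeq2. From the values, the authors' signal is an estimated gene count divided by 1 size factor per library. How the mouse reads were counted, and on which build and annotation, is not given in the sources used here, and 0 columns lacked a sample. A change of size factor shifts a whole library, and reads shared by similar genes can move between them. Between 79.0% and 84.6% of values under 100 were whole reads to within 0.05 reads, so the values were not treated as counts.

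Symbols, chromosomes and transcript lengths came from GENCODE (GRCm38), and promoters from RefSeq (GRCm38.p6). The members, lists and named genes were chosen with earlier results of these data known, and the roles were assigned after the values were seen. Named genes were the 12 furthest below sgControl on the log2 scale, the 8 highest in sgControl, the 8 with the smallest p among lines, the 8 most even among lines with a mean of at least 50, members of the fixed lists, and the 3 genes on either side of the threshold. Differences among lines were tested with limma (version 3.58.1, R 4.3.3) on log2(value + 1), with a trended and robust spread, all 4 groups of 3 libraries in 1 fit, two-sided p-values and Benjamini-Hochberg adjustment over 982 genes at 0.05. One member that entered these counts is not reported here by name. Fold changes on this scale understate the change of low genes. The fit was tested on simulated data. Alternatives were other scalings, pseudocounts, a filter on low values, a spread without trend, a replicate block and each library left out. Scaling to the table total without its most abundant feature was added after the data were seen.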

Additional observations from a re-analysis of the deposited data

Results flagged for a closer look

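The 45 members with a difference among sg1, sg2 and sg3 are raised for a closer look because lines edited in the same gene differed when that difference was tested. They are 40.9% of the members, and 75.3% of all genes of the table differed, so such a difference does not mark the members out. The named ones among them are given here with the limma adjusted p among lines over all genes of the table, and no explanation was weighed.

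They are listed by the line with the lowest or the highest mean, which need not differ from both other lines. In sg2, Chchd10 was nearly lost (adjusted p = 2.19e-13). In sg3, Mum1l1 (3.26e-10), Fzd7 (1.51e-09), Tfpi (3.78e-06) and Sdf2l1 (0.000817) were lowest. In sg1, Nsun2 (6.4e-09), Twnk (6.46e-05), H2afy (0.00054), Impdh2-ps (0.00215), Apbb1 (0.012) and Ank1 (0.0188) were lowest. Line sg1 kept most of Osbpl7 (6.4e-09), Pdia6 (0.000787), Rpn1 (0.00338), Pdia4 (0.00436) and Arhgef6 (0.00696), sg3 kept most of Col24a1 (4.76e-06), and sg2 kept most of Itpkb (3.5e-07), P3h2 (0.000652) and Hnrnpa0 (0.0307). The calls of Pdia4, Pdia6 and Rpn1 were lost under every other scaling. Those of Sdf2l1, Hnrnpa0, Arhgef6 and Ank1 were lost under at least 1 alternative. Each line was taken as 1 clone, so a difference between lines cannot be told apart from one between clones.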

How the results depend on the processing

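Scaling moved the counts most, except for sg2 with sg3. Among lines 77 members differed with median-of-ratios scaling and 81 when the most abundant feature was left out of the table total, against 45 with the authors' scaling (79.6%, 79.2% and 75.3% of all genes). Between sg1 and sg2 both gave 69 in place of 41, and between sg1 and sg3 they gave 72 and 78 in place of 34, where the shares of all genes were 71.4% and 71.3%, and 70.3% and 70.4%. With scaling to the table total 39 differed among lines (69.9% of all genes), and 222 genes met the rule. Median of ratios gave 151 genes by the rule (109 shared) and the total without the top feature 118 (99 shared), and 99 members were kept under every scaling. Sdhd, H2afy, Kat2a, Nln, Ppif, Nnt, Aldh9a1, Sdad1, Fbxo17, Prmt6 and Impdh2-ps were lost under at least 1 scaling. The cause was not tested.

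Leaving out 1 library gave 36 to 48 members differing among lines, 30 to 44 for sg1 with sg2, 31 to 39 for sg1 with sg3, 10 to 14 for sg2 with sg3, and 110 to 155 genes by the rule, which can only gain genes that way. Of all genes 69.9% to 75.9% then differed among lines, and 62.0% to 68.7%, 61.8% to 66.4% and 26.4% to 31.2% for these pairs. With a replicate block 52 members differed among lines, with 47, 44 and 15 for the same pairs (78.9%, 71.0%, 69.3% and 34.8% of all genes). The numbers were not taken as pairing the libraries, since not every same-number pair correlated above 0.1: 11 of 18 did, the 6 of sgControl with sg1 and sg2 among them, and 5 of 9 among the guide lines. As a hint from the data, 11 of 12 libraries were closest to their own number. Of the 47 named genes, 24 changed their call under at least 1 of 20 alternatives, with 39 calls gained, 18 lost, 875 as before and 0 reversed. The depth of the libraries is unknown, and values of a few reads carry a wide counting error.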
